A study of Mus musculus with 6 samples.

Results

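The mitochondrial genome of the mouse carries 37 genes, and all 37 were rows of the count table of 54532 genes. They were taken as every row on chromosome MT and divided by annotated class into 13 protein-coding genes, 2 ribosomal RNA (rRNA) genes and 22 transfer RNA (tRNA) genes. RNA was sequenced from kidneys of 3 WT and 3 Trpm2-/- samples, replicates 1, 2 and 3 for WT and 1, 2 and 4 for Trpm2-/-. All 6 samples came from C57BL/6J mice that the labels give as 6 to 8 weeks old, while the methods name an older range for mice given cisplatin, and all received cisplatin at 18 mg/kg and were examined at 72 h. Cisplatin is a platinum drug that injures kidney tubules, and the labels call the samples a model of cisplatin-induced acute kidney injury (AKI). The comparison is therefore between genotypes under treatment, and kidneys without cisplatin were not analysed here. The Trpm2-/- allele lacks a pair of exons of the channel's transmembrane part, so its protein forms no functional calcium-permeable channel. Counts of Trpm2 over the whole gene were 5, 5 and 27 in WT and 10, 16 and 20 in Trpm2-/- libraries. They overlapped, and they do not check the labels, since the exons that remain in the allele are counted too.

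Mitochondrial DNA is transcribed from both strands into long precursors that cover nearly the whole circle. The tRNAs lie between most of the other genes, and their excision releases the mRNAs and rRNAs, which are then adenylated, degraded at different rates and translated inside the organelle. The protein-coding genes encode core subunits of complexes I, III, IV and V of oxidative phosphorylation, complex II being wholly of nuclear origin. Proximal tubule cells, the main target of cisplatin, are among the most mitochondria-rich cells of the body. On the reference, 28 genes are read from the plus strand, including 14 tRNA genes, and 9 from the minus strand, which are mt-Nd6 and 8 tRNA genes. None has an intron.

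Some of the sequences matter for what the counts can show. The first group holds the tRNA genes with the highest counts (mt-Tp, mt-Tc, mt-Tn), the one with the largest called difference among tRNAs (mt-Tl1), and the pair that had no count in any library (mt-Tf and mt-Td). They are printed from the GENCODE mouse annotation, release M21 (GRCm38), 5′ to 3′ along the RNA, with the anticodon in capitals. The anticodon was located by its known letters at the centre of a loop closed by a base-paired stem.
mt-Tp (proline; MT:15356-15422, minus strand): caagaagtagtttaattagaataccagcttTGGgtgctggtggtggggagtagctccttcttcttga
mt-Tc (cysteine; MT:5192-5257, minus strand): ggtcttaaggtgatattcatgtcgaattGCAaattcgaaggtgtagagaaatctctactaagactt
mt-Tn (asparagine; MT:5089-5159, minus strand): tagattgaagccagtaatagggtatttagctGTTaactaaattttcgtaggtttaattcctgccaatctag
mt-Tl1 (leucine; MT:2676-2750, plus strand): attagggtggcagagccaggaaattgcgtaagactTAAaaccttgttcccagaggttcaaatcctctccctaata
mt-Tf (phenylalanine; MT:1-68, plus strand): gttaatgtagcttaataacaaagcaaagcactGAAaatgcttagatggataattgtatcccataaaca
mt-Td (aspartate; MT:6942-7011, plus strand): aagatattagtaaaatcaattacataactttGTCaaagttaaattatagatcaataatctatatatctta
These genes are 59 to 75 bases long over all 22. Mature tRNAs are shorter than the inserts that such libraries usually hold, so a count on a tRNA gene can stem from a longer precursor, which was not tested.

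The next sequence is that of mt-Nd4l, a subunit of complex I, and is shown because it had the largest fold change among the genes tested and because nearly all of it also stands in the nuclear genome. Capitals mark the 294 bases that are identical in the pseudogene Gm10222 on chromosome 1 (chr1:24612407-24612700, minus strand, GRCm38), and lower case marks the rest of the gene.
mt-Nd4l (MT:9877-10173, plus strand): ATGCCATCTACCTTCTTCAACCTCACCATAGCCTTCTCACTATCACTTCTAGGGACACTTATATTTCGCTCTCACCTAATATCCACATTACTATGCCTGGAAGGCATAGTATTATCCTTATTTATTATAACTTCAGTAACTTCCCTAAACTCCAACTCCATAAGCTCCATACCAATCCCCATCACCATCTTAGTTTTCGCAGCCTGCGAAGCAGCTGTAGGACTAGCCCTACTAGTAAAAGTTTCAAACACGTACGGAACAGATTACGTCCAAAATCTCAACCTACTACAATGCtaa
A read from within the capitals matches both places equally well. The last 7 bases of the gene are also the first of mt-Nd4.

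The mitochondrial genome took a larger share of the counts in every Trpm2-/- library than in any WT library. The 37 genes together held 4.72%, 4.54% and 4.43% of all counts on genes in WT replicates 1, 2 and 3, and 7.91%, 7.95% and 11.0% in Trpm2-/- replicates 1, 2 and 4. The means were 4.57% ± 0.147 and 8.96% ± 1.79 (SD, n = 3), a ratio of 1.96. Replicate 4 stood above the other Trpm2-/- libraries, and with each library left out in turn the ratio stayed between 1.74 and 2.08. With 3 against 3, the two-sided exact permutation test cannot give a p under 0.1, so no share or ratio of these libraries could pass a threshold of 0.05; below, such values are described by whether the groups overlapped. In whole kidneys, more mitochondrial RNA per cell and more cells rich in it cannot be told apart, and a share also rises when other RNAs fall.

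The ratio of the genotype means was largest for rRNA and smallest for tRNA. Protein-coding genes held 4.44%, 4.26% and 4.13% of counts in WT and 7.35%, 7.13% and 10.2% in Trpm2-/- libraries, a ratio of means of 1.92. The rRNA genes held 0.263%, 0.258% and 0.283% against 0.528%, 0.783% and 0.783%, a ratio of 2.61. The tRNA genes held 0.0197%, 0.0246% and 0.0215% against 0.0310%, 0.0402% and 0.0389%, a ratio of 1.68. None of the 3 classes overlapped between genotypes. Replicate 4 was high for protein-coding genes, whereas replicates 2 and 4 were nearly equal for rRNA and replicate 1 was the lowest for rRNA and tRNA.

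**Figure D1:**
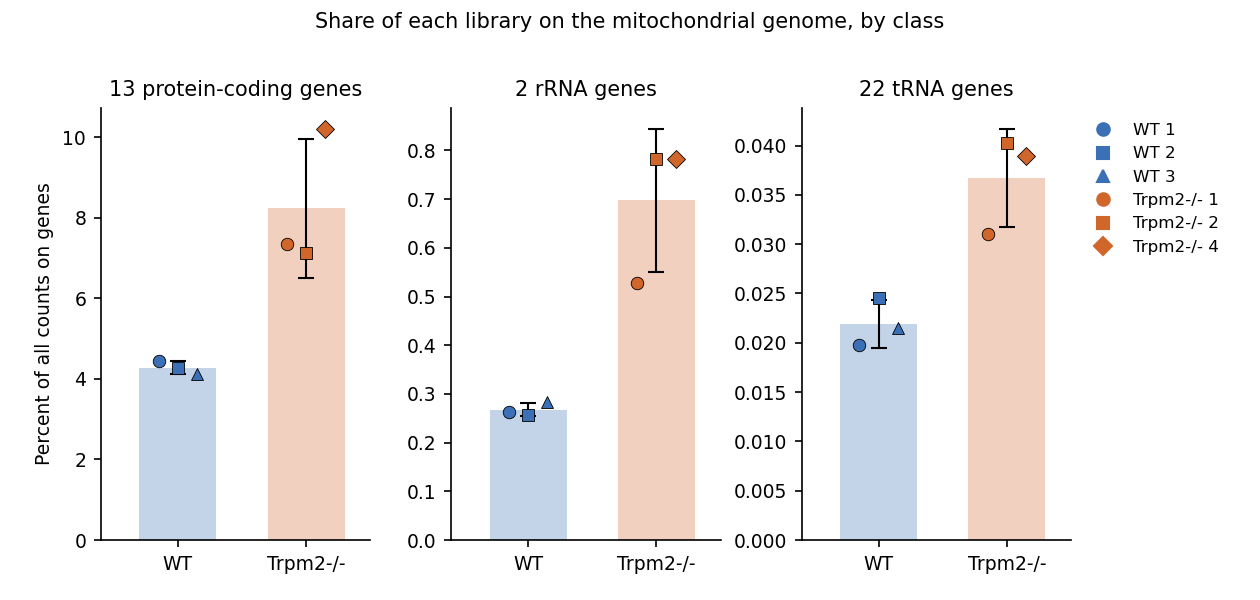
Percent of all counts on genes (vertical axes, 1 scale per panel) held by the protein-coding, rRNA and tRNA genes of the mitochondrial genome; points are libraries, bars are means of 3 and error bars are SD. All 3 Trpm2-/- libraries lie above all 3 WT libraries in each panel, with protein-coding shares of 7.13% to 10.2% against 4.13% to 4.44%.

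By respiratory complex, the share of counts held by the 7 genes of complex I went from 1.93% ± 0.0164 to 3.53% ± 0.812 (ratio 1.83), that of mt-Cytb, the only mitochondrial gene of complex III, from 0.694% ± 0.0256 to 1.20% ± 0.313 (ratio 1.72), and that of the 3 genes of complex IV from 1.65% ± 0.186 to 3.50% ± 0.622 (ratio 2.12; SD, n = 3 in each). These 3 did not overlap between genotypes. The 2 genes of complex V held 0.00733% ± 0.00124 and 0.00818% ± 0.00144, and these shares overlapped. By strand, the plus strand went from 4.36% ± 0.160 to 8.65% ± 1.72 (ratio 1.99) and the minus strand from 0.208% ± 0.0136 to 0.311% ± 0.0760 (ratio 1.49), both without overlap.

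Some other RNAs moved with these shares and some did not. For single genes, rose and fell mean called at an adjusted p under 0.05 in the fit described below. That fit called 4.74% of all genes tested higher and 7.28% lower. Of 4 long RNAs kept in the nucleus, 2 rose (Malat1 and Kcnq1ot1). Meg3, with few counts, was higher in all Trpm2-/- libraries (2.17 ± 0.64 on the log2 scale) but was not called. Malat1, chosen after its values were seen, was at 1218, 942 and 1090 CPM (counts scaled to library size by edgeR's TMM method) in WT and at 2290, 2584 and 2609 CPM in Trpm2-/- libraries. Neat1, the other abundant one, was at 1542, 1433 and 1923 CPM against 924, 1883 and 1508 CPM and overlapped. Genes of cytosolic rRNA, summed, were at 564, 986 and 810 CPM (of all counts, without TMM) against 774, 608 and 434 CPM and overlapped too. Short nuclear RNAs (snRNA, snoRNA and scaRNA genes) summed to 59.4 to 66.9 CPM (likewise of all counts) in WT and to 67.7, 91.1 and 96.0 CPM in Trpm2-/- replicates 1, 2 and 4. The 10 proximal tubule markers, such as Slc34a1 and Lrp2, were present in all libraries and all 10 fell, with a summed level of 5383 to 6700 CPM in WT and 2028 to 2677 CPM in Trpm2-/- libraries. Markers of other nephron segments, 8 in all, summed to 2233 to 3288 CPM in WT and 906 to 1835 CPM in Trpm2-/- libraries; Aqp2 of the collecting duct (-1.02 ± 0.17 on the log2 scale) and Umod of the thick ascending limb (-1.97 ± 0.50) fell, and the other 6 were not called. Of 4 markers of tubular injury 1 rose (Krt20), with summed levels of 2749 to 3270 CPM and 3821 to 4825 CPM. Markers of leukocytes (7 of 8 tested, none called; Cd3e at 0 in 3 libraries) summed to 99.4 to 107 CPM and 88.8 to 135 CPM. Their part in the mitochondrial shares was not tested.

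Single genes were compared in 1 fit over the 15816 genes with enough counts, using the two-sided quasi-likelihood test of edgeR with Benjamini-Hochberg adjustment, and log2 fold changes are Trpm2-/- against WT. Of the 37 genes, 26 passed the filter on low counts: 12 protein-coding genes, both rRNA genes and 12 tRNA genes. Of these, 21 reached the filter's minimum of 0.622 CPM in all 6 libraries, and 5 tRNA genes (mt-Tw, mt-Tg, mt-Tr, mt-Th and mt-Ts2) did so in fewer, so that they passed with the help of Trpm2-/- libraries. At an adjusted p under 0.05, 9 genes were higher in Trpm2-/- kidneys, against 4.74% of all genes tested that were called higher. They were mt-Rnr1, mt-Rnr2, mt-Nd2, mt-Nd4l, mt-Nd5, mt-Co1, mt-Co2, mt-Tl1 and mt-Tp. None was called lower by edgeR, against 7.28% of all genes; the 26 log2 fold changes ran from 0.03 to 1.83, so the count of lower members at an unadjusted p under 0.05 was also 0, and DESeq2 and limma-voom called 0 lower as well. Log2 fold changes were above 0 for 51.6% of all genes.

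With the study's threshold, an absolute log2 fold change above 1 and p under 0.05, 8 genes were higher (mt-Rnr1, mt-Rnr2, mt-Nd4l, mt-Nd5, mt-Tl1, mt-Ty, mt-Th and mt-Ts2) where 3.5% of all genes were, and 0 were lower where 4.1% were. The 3 Trpm2-/- libraries all lay above the 3 WT libraries for 15 of the 26, which held for 16.7% of all genes. Both counts include mt-Th and mt-Ts2, which passed the filter with the help of the libraries where they were high. Among genes at the filter's minimum in all 6 libraries, a restriction added after the values were seen, 6 of 21 members and 334 of 13995 genes passed the study's threshold, 13 members and 2373 genes were higher without overlap, and 9 members and 675 genes were higher at an adjusted p under 0.05. Which genes were called depended on single libraries. Only mt-Rnr1, mt-Rnr2 and mt-Nd5 were called with each of the 6 libraries left out in turn. The number called was 3 without WT replicate 3 and 5 without WT replicate 1, and limma on log2(FPKM + 1) called 5. Calls fell over all genes in these fits too, from 750 called higher to 160, 555 and 304.

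**Figure D2:**
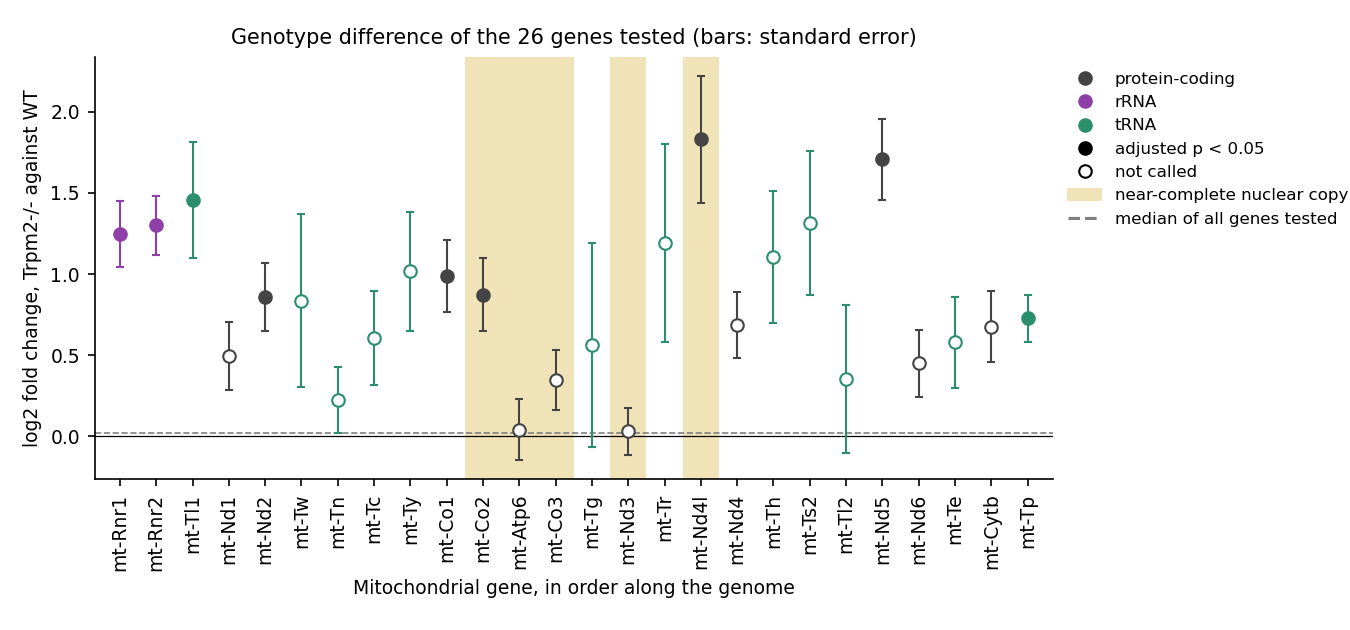
Log2 fold change of each of the 26 genes tested (vertical axis) in order along the genome, with the standard error; filled points passed an adjusted p of 0.05, bands mark genes with a near-complete nuclear copy and the dashed line is the median of all genes tested, 0.02. Values run from 0.03 for mt-Nd3 to 1.83 for mt-Nd4l, and both rRNA genes and mt-Nd5 stand above 1.2 with small errors.

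The rRNA genes rose, and did so together. mt-Rnr1 (ENSMUSG00000064337), the 12S rRNA of the small mitochondrial ribosome subunit, was at 1282, 1404 and 1492 CPM in WT and at 2444, 3763 and 3710 CPM in Trpm2-/- libraries. Its log2 fold change was 1.25 ± 0.20 (SE), adjusted p = 0.00577. mt-Rnr2 (ENSMUSG00000064339), the 16S rRNA of the large subunit, was at 1314, 1372 and 1483 CPM against 2776, 3751 and 3741 CPM, with a log2 fold change of 1.30 ± 0.18, adjusted p = 0.0034. In both, replicate 1 was the lowest Trpm2-/- library and still above every WT library. The log2 ratio of 12S to 16S counts, compared after the values were seen, was 0.00 ± 0.03 in WT and -0.06 ± 0.10 in Trpm2-/- libraries (SD, n = 3) and overlapped. The log2 fold change of mt-Rnr1 with a library left out was 1.14 to 1.42, and that of mt-Rnr2 1.23 to 1.43.

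Relative to the protein-coding genes of the same library, the rRNA genes were also higher. The ratio of rRNA to protein-coding counts was 0.0593, 0.0605 and 0.0685 in WT and 0.0718, 0.110 and 0.0766 in Trpm2-/- libraries. The groups did not overlap, but WT replicate 3 and Trpm2-/- replicate 1 lay close together and replicate 2 stood apart. The mean difference of the log2 ratio was 0.43, 0.24 without Trpm2-/- replicate 2 and up to 0.55 with another library left out.

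Of the 7 complex I genes, 3 rose. mt-Nd5 (ENSMUSG00000064367), part of the proton-pumping arm, was at 2497, 1842 and 1673 CPM in WT and at 6497, 4829 and 8312 CPM in Trpm2-/- libraries, a log2 fold change of 1.71 ± 0.25 (adjusted p = 0.00394). mt-Nd4l (ENSMUSG00000065947), whose sequence is given above, was at 4.87, 3.47 and 2.82 CPM against 19.2, 6.42 and 14.1 CPM (1.83 ± 0.39, adjusted p = 0.0174), and replicate 2 lay closest to WT. mt-Nd2 was at 3572, 3489 and 3643 CPM against 5581, 5477 and 8366 CPM (0.86 ± 0.21, adjusted p = 0.0294). For mt-Nd5 even the lowest Trpm2-/- library was well above the highest WT library.

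The other 4 complex I genes did not pass the test. mt-Nd1 was at 8101, 9462 and 9161 CPM in WT and 10803, 11413 and 15498 CPM in Trpm2-/- libraries (log2 fold change 0.50 ± 0.21, adjusted p = 0.158). mt-Nd4 was at 3160, 3717 and 3841 CPM against 4626, 5760 and 6869 CPM (0.69 ± 0.20, adjusted p = 0.0544). mt-Nd6, the only protein-coding gene of the minus strand, was at 1719, 2053 and 2079 CPM against 2298, 2258 and 3440 CPM (0.45 ± 0.21, adjusted p = 0.187). In these 3 genes the Trpm2-/- libraries all lay above the WT libraries. mt-Nd3 was at 28.6, 30.8 and 35.0 CPM against 27.9, 34.2 and 34.4 CPM, so that the groups overlapped (0.03 ± 0.15, adjusted p = 0.915).

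mt-Cytb, the cytochrome b of complex III, was at 6572, 7535 and 7540 CPM in WT and at 9770, 10029 and 14817 CPM in Trpm2-/- libraries. It did not pass the test (0.68 ± 0.22, adjusted p = 0.0764), although the groups did not overlap and replicate 4 was again the highest.

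Within complex IV, cytochrome c oxidase, mt-Co1 and mt-Co2 rose and mt-Co3 did not pass. mt-Co1, the catalytic subunit, had the most counts of the mitochondrial genes. It was at 17924, 17461 and 15129 CPM in WT and at 32600, 28179 and 39422 CPM in Trpm2-/- libraries (0.99 ± 0.22, adjusted p = 0.0213). mt-Co2, which accepts electrons from cytochrome c, was at 94.2, 169 and 135 CPM against 251, 190 and 289 CPM (0.87 ± 0.23, adjusted p = 0.0362). Here WT replicate 2 and Trpm2-/- replicate 2 were close. mt-Co3 was at 68.8, 83.9 and 111 CPM against 102, 128 and 105 CPM and overlapped (0.35 ± 0.18, adjusted p = 0.25). Calls of mt-Nd2, mt-Nd4l and mt-Co1 were kept in 3, and that of mt-Co2 in 2, of the 6 fits that left out a library.

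The genes of complex V, the ATP synthase, showed no difference that could be called. mt-Atp6 was at 63.0, 73.6 and 91.8 CPM in WT and 86.5, 61.2 and 87.5 CPM in Trpm2-/- libraries (0.04 ± 0.19, adjusted p = 0.91), with its lowest value in Trpm2-/- replicate 2. mt-Atp8 had 1, 6 and 2 counts against 6, 22 and 4 counts and was not tested. It shares 43 bases with mt-Atp6.

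Levels per length differed far more between genes than between genotypes. On the FPKM scale (fragments scaled to gene length and library size) the WT means were 9535 ± 875 for mt-Co1, 8142 ± 640 for mt-Nd1, 5517 ± 415 for mt-Cytb, 3287 ± 331 for mt-Nd6, 3006 ± 59.8 for mt-Nd2 and 2268 ± 225 for mt-Nd4 (SD, n = 3). The order went on with mt-Rnr1 at 1276 ± 92.9, mt-Nd5 at 961 ± 211 and mt-Rnr2 at 768 ± 45.3. Then came mt-Co2 at 170 ± 47.6, mt-Co3 at 98.1 ± 23.6, mt-Atp6 at 97.8 ± 18.4, mt-Nd3 at 79.1 ± 8.01, mt-Nd4l at 11.0 ± 3.12 and mt-Atp8 at 0.815 ± 0.739. The WT ranges overlapped between mt-Co1 and mt-Nd1, between mt-Nd6 and mt-Nd2, among mt-Rnr1, mt-Nd5 and mt-Rnr2 for neighbours in this order, and likewise along mt-Co2, mt-Co3, mt-Atp6 and mt-Nd3. The other neighbours were apart. The 2 rRNA genes, abundant in cells, thus stood below 6 of the mRNAs here, and how RNA was selected for the libraries is not given in the sources used here.

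The low end of that order was where the nuclear copies were. At least 90% of the 75-base windows of mt-Co2 (99.5%), mt-Atp6 (99.5%), mt-Co3 (99.9%), mt-Nd3 (97.8%) and mt-Nd4l (98.7%) also occur in a transcript of a nuclear gene. Among the transcripts searched, the exception is mt-Atp8, the lowest of all, of which 0 windows do. Only annotated transcripts were searched, not the whole nuclear genome, so this does not show that mt-Atp8 lacks a nuclear copy. Each of the 5 has its own pseudogene, and these lie side by side in 1 block on the minus strand of chromosome 1, from Gm28661 (chr1:24614885-24615565) for mt-Co2 over Gm10925, Gm28437 and Gm28438 to Gm10222 for mt-Nd4l. The aligned stretches, of 681, 678, 783, 342 and 294 bases in the order of the genes above, held 0 substitutions. The block goes on into mt-Nd4, of which 61.5% of the windows are shared and 876 aligned bases are identical in Gm28439. Of the windows of mt-Co1, 39.8% occur in 2 nuclear genes, and only 1 of these was followed here. This is Gm29216 at the other end of the block, with 27.5% of the windows. It has 1 substitution (A1066T, mt-Co1 base first, counted from the first base of the gene). These pseudogenes were found by sequence after the values had been seen. A copy of mt-Atp8 between Gm28661 and Gm10925, its place by gene order, would be missed if no annotated transcript covers it.

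**Figure D3:**
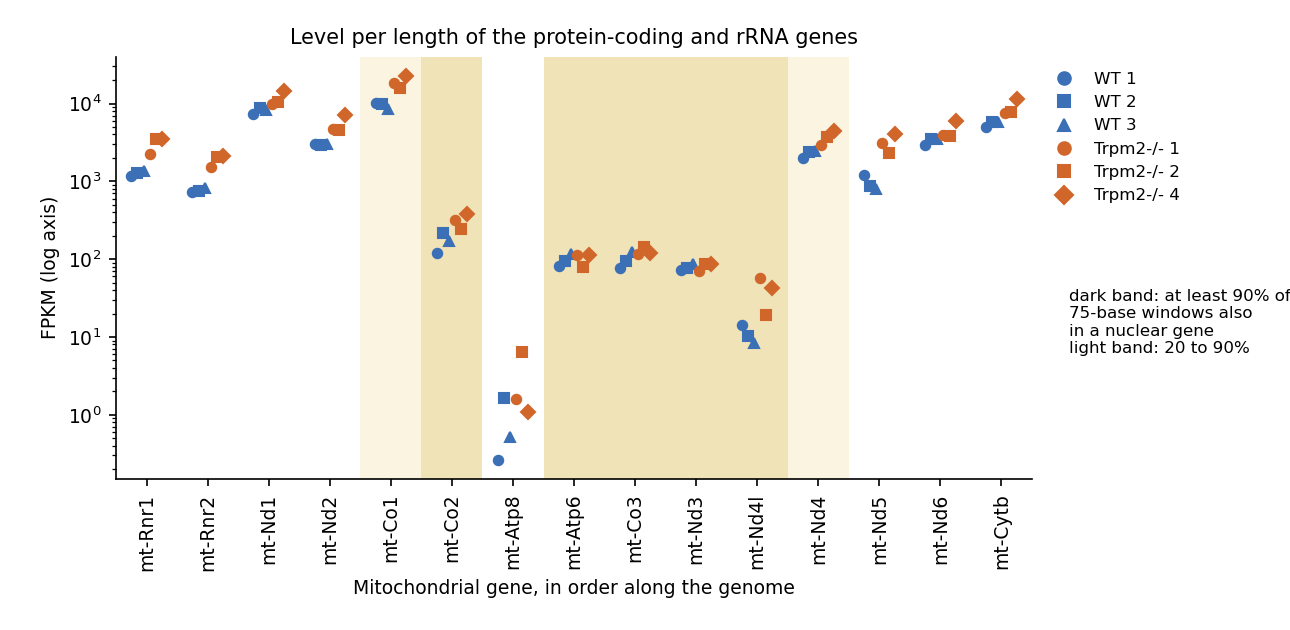
FPKM (log axis) of the protein-coding and rRNA genes in order along the genome, 1 point per library; dark bands mark genes with at least 90% of 75-base windows also in a nuclear gene and light bands those with 20 to 90%. WT means are 11.0 to 170 in the dark bands and 768 to 9535 elsewhere, apart from mt-Atp8 at 0.815. Windows were searched in annotated transcripts only.

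Both the mitochondrial genes and their copies carried counts. mt-Co2 held 61.1% to 75.8% of the summed counts of itself and its copy over the 6 libraries, mt-Atp6 47.4% to 54.7%, mt-Co3 57.0% to 69.2%, mt-Nd3 76.9% to 84.3% and mt-Nd4l 57.7% to 67.9%. mt-Nd4 and mt-Co1 held over 99% of theirs. With the copy's counts added, mt-Co2 stayed far below mt-Co1: mt-Co2 and Gm28661 summed to 2503, 3769 and 3435 counts in WT where mt-Co1 had 290614, 271747 and 246611. What became of reads that fit both places is not given in the sources used here, so levels and fold changes of these 5 genes are uncertain. Those of mt-Nd4 (61.5% of windows shared) and mt-Co1 (39.8%) are uncertain too, for the shared parts. With the copies added, the log2 fold change was 1.80 ± 0.35 for mt-Nd4l (adjusted p = 0.0115), 0.72 ± 0.19 for mt-Co2 (adjusted p = 0.0389), 0.23 ± 0.19 for mt-Atp6 and 0.22 ± 0.18 for mt-Co3. That of mt-Nd3 turned from 0.03 to -0.07 ± 0.14. The calls of the 5 genes were the same with and without the copies. Of the counts given to the copies, those of Gm10222 rose, with 47, 33 and 23 in WT and 148, 69 and 126 in Trpm2-/- libraries (1.75 ± 0.36, adjusted p = 0.0154). Those of Gm28439 rose with 203, 157 and 154 against 520, 278 and 418 (1.26 ± 0.22, adjusted p = 0.00721), and the other 5 copies were not called. The aligned bases of both are identical to mt-Nd4l and mt-Nd4, so these counts cannot be assigned to the nuclear genes rather than the mitochondrial ones.

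In the make-up of the mitochondrial mRNA pool, the shares of some genes did not overlap between genotypes. Each of these had p = 0.1 in the exact permutation test, the smallest possible, and an adjusted p of 0.26. The shares are parts of a whole, so a larger share of a gene lowers those of others. mt-Nd5 made up 5.70%, 4.01% and 3.85% of protein-coding counts in WT and 8.94%, 7.06% and 8.55% in Trpm2-/- libraries. mt-Nd1 took a smaller share in Trpm2-/- libraries, although its CPM were higher there. Its share was 18.5%, 20.6% and 21.1% in WT and 14.9%, 16.7% and 15.9% in Trpm2-/- libraries. Neither share overlapped. mt-Nd6 (4.39% ± 0.435 and 3.33% ± 0.189), mt-Atp6 (0.172% ± 0.0352 and 0.0995% ± 0.0169) and mt-Nd3 (0.0710% ± 0.00841 and 0.0413% ± 0.00773) were likewise lower without overlap in Trpm2-/- libraries (SD, n = 3). The largest part, mt-Co1, was 40.9%, 38.0% and 34.8% against 44.9%, 41.2% and 40.5% and overlapped, as did the remaining 7 genes.

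Ratios within a library do not use the counts of nuclear genes, though how reads shared with nuclear copies were treated can alter them. As such a ratio, mt-Nd5 against the other protein-coding genes stood at 0.0604, 0.0418 and 0.0401 in WT and 0.0982, 0.0760 and 0.0935 in Trpm2-/- libraries. The mean difference of the log2 ratio was 0.93, and 0.82 to 1.12 with a library left out; this ratio was added after the values were seen. mt-Nd6 against the plus-strand protein-coding genes stood at 0.0409, 0.0468 and 0.0503 in WT and 0.0327, 0.0342 and 0.0367 in Trpm2-/- libraries, a difference of -0.41 on the log2 scale (-0.49 to -0.34 with a library left out). Thus mt-Nd5 stood higher and mt-Nd6 lower relative to the other mRNAs, although they overlap by 14 bases on opposite strands. The lower place was not particular to mt-Nd6. Its log2 fold change of 0.45 stood near that of mt-Nd1 on the plus strand, 0.50. The library kit that the methods name is the version that does not mark the strand, so reads of mt-Nd6 or a minus-strand tRNA gene and reads of RNA from the opposite strand cannot be told apart. Complex V against the rest was lower in all Trpm2-/- libraries (log2 difference -0.77), which rests on mt-Atp6, nearly all of it shared with a nuclear copy. Complex I (-0.14), complex III (-0.20), complex IV (0.26) and tRNA against protein-coding genes (-0.18) overlapped, as did the 5 genes with a near-complete copy against the other protein-coding genes (-0.28).

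**Figure D4:**
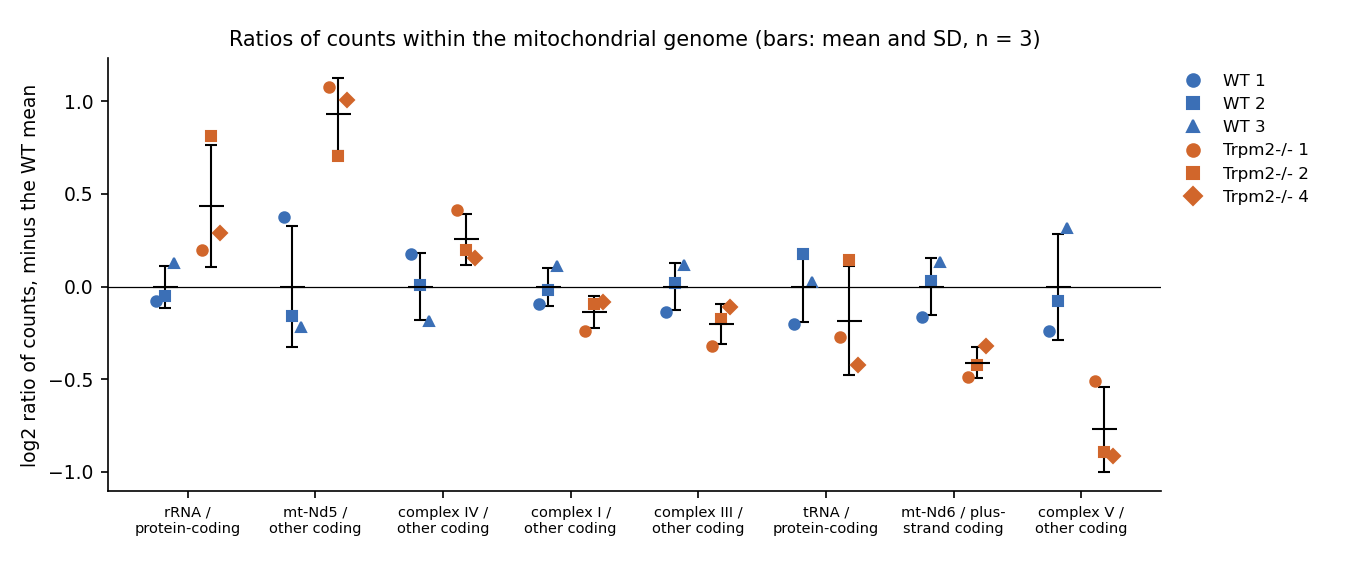
Log2 ratio of counts within each library minus the WT mean (vertical axis) for 8 ratios; points are libraries and bars give mean and SD of 3. rRNA and mt-Nd5 lie higher in all Trpm2-/- libraries (mean differences 0.43 and 0.93), mt-Nd6 and complex V lie lower (-0.41 and -0.77), and the other ratios overlap.

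Among tRNA genes, mt-Tp, mt-Tc and mt-Tn, all on the minus strand, held 85.2% to 91.5% of tRNA counts. mt-Tp (proline) was at 111, 140 and 119 CPM in WT and at 182, 201 and 230 CPM in Trpm2-/- libraries and rose (0.73 ± 0.15, adjusted p = 0.0139). mt-Tc (cysteine) was at 28.6, 49.7 and 46.0 CPM against 39.5, 89.1 and 60.6 CPM (0.61 ± 0.29, adjusted p = 0.207). mt-Tn (asparagine) was at 28.6, 49.6 and 42.1 CPM against 40.3, 53.5 and 46.9 CPM (0.23 ± 0.20, adjusted p = 0.51). The latter pair overlapped, with WT replicate 1 the lowest library in both. The only other tRNA gene called was mt-Tl1 (leucine), which lies directly after mt-Rnr2. It was at 1.91, 2.89 and 1.41 CPM in WT and at 6.98, 6.01 and 4.11 CPM in Trpm2-/- libraries (1.46 ± 0.36, adjusted p = 0.0296). The call of mt-Tp was kept in 4 and that of mt-Tl1 in 2 of the 6 fits that left out a library.

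The other 8 tRNA genes tested had few counts. mt-Te (glutamate) was at 11.9, 9.64 and 6.93 CPM in WT and at 18.9, 9.90 and 13.7 CPM in Trpm2-/- libraries, and mt-Tl2 (leucine) at 6.17, 3.98 and 4.42 against 4.04, 11.5 and 3.18 CPM. mt-Ty (tyrosine) was at 1.97, 3.28 and 2.02 against 6.30, 5.39 and 3.05 CPM. All 3 overlapped. mt-Ts2 (serine) was at 1.11, 0.835 and 0.491 CPM in WT and 2.20, 2.53 and 1.37 CPM in Trpm2-/- libraries, and mt-Th (histidine) at 0.617, 0.771 and 0.613 against 1.78, 1.37 and 1.18 CPM. These did not overlap, at adjusted p = 0.0856 and 0.108. mt-Tw (tryptophan) was at 1.17, 2.38 and 0.613 against 1.71, 1.91 and 3.80 CPM, mt-Tr (arginine) at 0.308, 0.386 and 1.60 against 1.47, 1.43 and 2.37 CPM and mt-Tg (glycine) at 0.555, 0.321 and 0.798 against 1.22, 1.02 and 0.249 CPM, all overlapping. The 10 tRNA genes not tested had at most 7 counts in a library. mt-Tf and mt-Td had 0 counts in all 6, which allows up to 0.175 to 0.213 CPM per library (3 counts, counting error only). These limits are of all counts, without TMM, unlike the CPM above. They do not cover reads that also fit elsewhere, since tRNA genes shorter than 75 bases were not searched for nuclear copies.

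By strand, the 14 plus-strand tRNA genes together held 0.00111% ± 0.000136 of counts in WT and 0.00217% ± 0.000517 in Trpm2-/- libraries (ratio 1.95), and the 8 minus-strand tRNA genes 0.0208% ± 0.00250 and 0.0346% ± 0.00480 (ratio 1.66; SD, n = 3). Neither overlapped between genotypes. The minus-strand tRNA genes thus took more counts than those of the plus strand, from which most mRNAs and both rRNAs are read.

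The nuclear genes that copy, process and translate mitochondrial RNA did not move with it. Of 100 such genes, all tested, 1 rose, against 4.74% of all genes, and 9 fell, a share near the 7.28% of all genes, and their median log2 fold change was -0.15 where that of all genes was 0.02. In transcription, none of 9 was called. Polrmt, the mitochondrial RNA polymerase, was at 37.3 ± 0.734 and 32.3 ± 3.60 CPM (-0.21 ± 0.13, adjusted p = 0.329), Tfam, which packages the DNA and starts transcription, had -0.26 ± 0.13 (adjusted p = 0.243) and the elongation factor Tefm -0.54 ± 0.19 (adjusted p = 0.0914). Of 15 genes of DNA maintenance, Primpol, a primase-polymerase, rose from 4.60 ± 0.465 to 8.84 ± 0.822 CPM (0.94 ± 0.22, adjusted p = 0.0254). The helicase Twnk (-0.42 ± 0.16) and Polg2, the accessory subunit of the DNA polymerase (-0.72 ± 0.21), were not called.

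Among 24 genes of RNA processing, Hsd17b10, a subunit of the mitochondrial RNase P that cuts tRNAs from the precursor, fell from 152 ± 10.5 to 91.8 ± 6.80 CPM (-0.73 ± 0.13, adjusted p = 0.0071), and Mrm2, which methylates 16S rRNA, fell (-0.85 ± 0.22, adjusted p = 0.038). Trnt1, which adds CCA ends to tRNAs, had 0.43 ± 0.15 and was not called. Of 16 genes of RNA stability and decay, the endoribonuclease Lactb2 (-0.68 ± 0.17) and Ptcd2 (-0.53 ± 0.13) fell. Lrpprc, which binds and stabilizes mitochondrial mRNAs, was at 101 ± 2.64 and 75.4 ± 11.7 CPM (-0.42 ± 0.14, adjusted p = 0.0815). In the 17 aminoacyl-tRNA synthetases, Fars2, which charges mt-Tf, fell (-0.83 ± 0.13, adjusted p = 0.00502), while Rars2 (-0.44 ± 0.15) and Lars2 (-0.84 ± 0.31) were not called.

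Of 11 translation factors, 3 fell: Tufm (-0.58 ± 0.14), Gfm1 (-0.55 ± 0.13) and Mtif3 (-0.55 ± 0.15). Of 8 nuclear regulators of biogenesis, Esrrb fell (-0.99 ± 0.26, adjusted p = 0.0397), and Esrra (-0.43 ± 0.16) and the coactivator Ppargc1a (-0.46 ± 0.21, adjusted p = 0.182) were not called. The count of 9 that fell was 2 without WT replicate 3, 3 without WT replicate 2, 4 without WT replicate 1 or Trpm2-/- replicate 2 or 4, and 5 without Trpm2-/- replicate 1. In the same order of libraries, the 1152 genes called lower over the whole table became 470, 521, 957, 1240, 1031 and 848. Fars2 and Hsd17b10 were called in all 6 of these fits. Primpol was not called without WT replicate 2 or 3.

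The nuclear-encoded subunits of the same complexes fell where the mitochondrial ones rose or did not pass. Of 75 listed, 74 were found and tested, and 59 fell and 0 rose, where 7.28% of all genes fell and 4.74% rose, with a median log2 fold change of -0.80. In complex I, 28 of 36 fell, among them Ndufv1 from 376 ± 43.8 to 187 ± 16.4 CPM (-1.01 ± 0.15, adjusted p = 0.0038), Ndufb11 (-1.05 ± 0.17), Ndufa2 (-1.06 ± 0.27), Ndufs3 (-0.91 ± 0.14) and Ndufc2 (-0.86 ± 0.13), while 3 of the 7 mitochondrial genes of this complex rose. In complex II, which has no mitochondrial gene, all 4 fell, with Sdhb at -0.96 ± 0.15, Sdhc at -0.66 ± 0.13 and Sdhd at -0.64 ± 0.14. In complex III, 6 of 9 fell, such as Uqcrfs1 (-0.93 ± 0.16), Uqcrc1 (-0.77 ± 0.14) and Cyc1 (-0.74 ± 0.13), beside mt-Cytb at 0.68 ± 0.22.

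In complex IV, 10 of 11 fell, such as Cox7a2 (-0.95 ± 0.17), Cox6b1 (-0.94 ± 0.18) and Ndufa4 (-0.90 ± 0.16), beside mt-Co1 at 0.99 ± 0.22. In complex V, 11 of 14 fell, such as Atp5g3 from 787 ± 129 to 353 ± 20.3 CPM (-1.16 ± 0.16, adjusted p = 0.00351), Atp5g1 (-0.99 ± 0.18) and Atp5c1 (-0.80 ± 0.14), beside mt-Atp6 at 0.04 ± 0.19. The summed level of the 74 genes was 23038, 29185 and 29900 CPM in WT and 14947, 17435 and 15185 CPM in Trpm2-/- libraries, without overlap. The count of 59 was 18 without WT replicate 3, 21 without WT replicate 2 and 33 without Trpm2-/- replicate 1, while the 1152 genes called lower over the whole table became 470, 521 and 848. As given above, all 10 proximal tubule markers fell too, as did 2 of 8 markers of other nephron segments, where 7.28% of all genes fell. The part of these markers in these values was not tested.

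**Figure D5:**
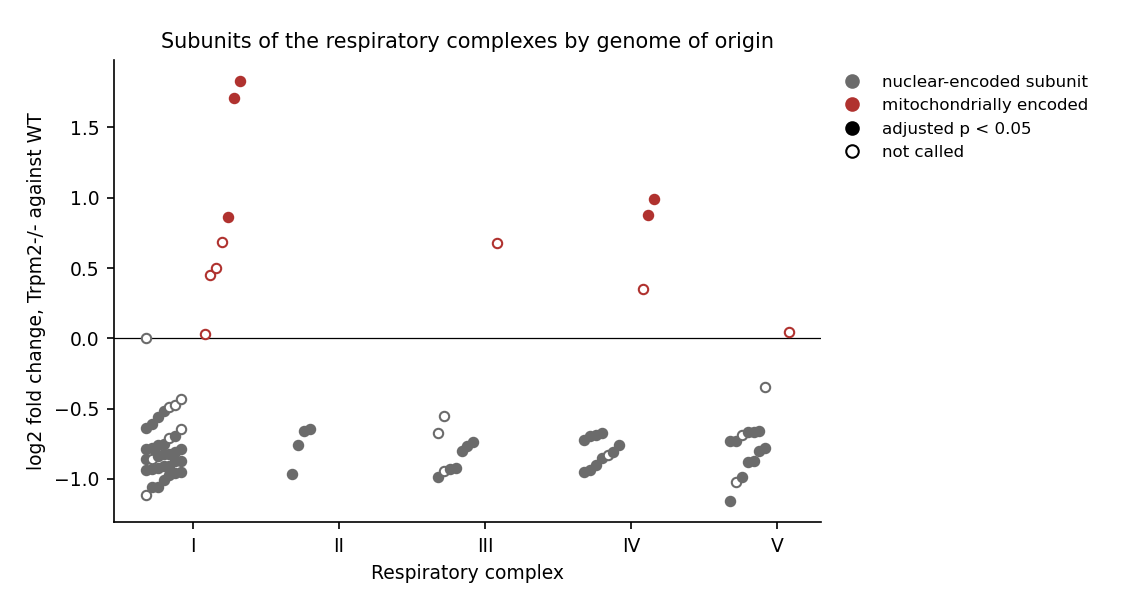
Log2 fold change (vertical axis) of single subunit genes by respiratory complex, nuclear-encoded genes on the left and mitochondrially encoded genes on the right of each position; filled points passed an adjusted p of 0.05. Of 74 nuclear-encoded genes 73 lie below 0, and all mitochondrially encoded genes tested lie above 0, from 0.03 to 1.83.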

How the data were processed

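RNA from 3 WT and 3 Trpm2-/- kidneys was extracted with Trizol, made into libraries with the NEBNext Ultra II kit, in the version that does not mark strand, and sequenced on an Illumina HiSeq instrument. The authors deposited a table of read counts per gene, not normalized, and a table of FPKM values per gene. The submitters' processing notes name HISAT2, StringTie and mm9. Positions in the tables are those of GRCm38, since 98.3% of genes, and all 37 on chromosome MT, had the position of GENCODE release M21. RNA selection and the treatment of reads with several matches are not given in the sources used here.

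Library totals were 14053307 to 17150089 counts. Counts were tested in R 4.3.3 with edgeR 4.0.16 (filterByExpr, TMM, quasi-likelihood test on genotype), with Benjamini-Hochberg adjustment over 15816 genes. CPM use TMM-normalized library sizes, and SE is the log2 fold change divided by the root of the test's F. Pairs of WT libraries differed by a chi-square of 14.7 to 20.5 per degree of freedom and pairs of Trpm2-/- libraries by 35.7 to 40.8, so none was a duplicate. The labels number the samples without saying that each is a separate mouse, and p-values measure the spread between these samples. Alternatives were other normalizations and filters, DESeq2 1.42.0, limma 3.58.1 on counts (voom) and on log2(FPKM + 1) or log2(FPKM + 0.1), a replicate block, added copies and leaving out each library. The fits were tested on simulated data. The members and gene lists, the latter compiled by hand from general knowledge, were chosen with earlier results of these data known. The text names every protein-coding and rRNA gene of chromosome MT, the tRNA genes tested, and of the other tRNA genes mt-Tf and mt-Td. Of the nuclear lists it names the 3 genes with the smallest p per role and those called with a log2 fold change past 1. It also names Polrmt, Tfam, Lrpprc and Ppargc1a. Malat1 and the chromosome 1 copies were chosen after values were seen. The copies' names or descriptions do not mark them as such, and they were found by 75-base windows of GENCODE transcripts.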

Additional observations from a re-analysis of the deposited data

How the results depend on the processing

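The 9 mitochondrial genes called higher were 5 with limma on either FPKM scale and 3 to 9 with a library left out; the other settings without a block called 9 to 12. Differences in share of counts for all 37 genes and for the 3 classes kept their direction in every alternative run. As shares of summed FPKM they were 9.06 percentage points for all 37 genes, 7.63 for protein-coding, 0.881 for rRNA and 0.553 for tRNA genes, since FPKM weights short genes more; with a library left out they were 3.36 to 4.93, 2.96 to 4.51, 0.387 to 0.515 and 0.0131 to 0.0177 points. All 10 ratios kept their direction. Machinery genes were 0 to 1 higher and 2 to 5 lower, and nuclear-encoded subunits 18 to 67 lower, with a library left out. Over all genes, 160 to 819 were called higher and 470 to 1240 lower in these fits. Values near 0 changed sign: mt-Atp6 was -0.084, -0.036 and -0.031 without WT replicate 1, Trpm2-/- replicate 1 and Trpm2-/- replicate 4 (at most 0.194). mt-Nd3 was -0.067 with the copies added, and -0.041, -0.016 and -0.011 without WT replicate 1, Trpm2-/- replicate 2 and Trpm2-/- replicate 4 (at most 0.123). mt-Tl2 was -0.430 without Trpm2-/- replicate 2 (at most 0.672). The cause was not tested. Of the 37 genes, 11 had too few counts to be tested.

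The genotypes share only the numbers 1 and 2, and deviations from the group means correlated at 0.06 and -0.01 in these pairs. Pairs with unlike numbers ran from -0.25 to 0.22. The values thus show no pairing by number, but so few pairs cannot exclude it. With the replicate block, WT replicate 3 and Trpm2-/- replicate 4 have no partner. The genotype difference thus rested on replicates 1 and 2 of each genotype. There, 4 mitochondrial genes were called higher, 0 machinery genes higher and 3 lower, and 31 subunits lower. Calls over all genes fell too, from 750 to 341 higher and from 1152 to 661 lower. The share difference for all 37 genes was 3.30 percentage points and the rRNA log2 ratio difference 0.57.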
